A study of Mus musculus with 10 samples.

Results

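Intronic polyadenylation was compared between 2 mouse mammary tumour lines, 4T1 and 67NR. The sites described are all 122 rows, in 117 genes, that the authors' deposited tables list for this pair, out of 2074 distinct sites listed over the 5 comparisons of the series. 4T1 is labelled invasive and belongs to the lines the study calls metastatic. 67NR is labelled non-invasive and non-metastatic. The lines are sublines of the same spontaneous mouse mammary carcinoma, grown in the same culture medium with serum. They carry no labelled treatment, although the study names a mock transfection for the 4T1 control of another comparison. That control is the same pair of 4T1 libraries used here, and the labels do not say whether they were mock transfected. If they were, transfection and line cannot be told apart here. There were 2 libraries per line. The labels do not tell separate cultures from repeat preparations, so the p-values below reflect library-to-library spread, which could be purely technical. The other lines used below are 4T07, labelled invasive, and 168FARN, labelled non-invasive, with 2 libraries each and no labelled treatment.

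A gene with an intronic polyadenylation site can end its transcript inside an intron, before the last exon is made. The shortened messenger RNA lacks the downstream exons, so the protein it encodes loses its carboxy-terminal part or the transcript is not translated into a stable product. U1 small nuclear RNA, which recognises 5' splice sites, is known to hold back such early cleavage, and the balance also shifts with the rate of splicing, of elongation and of 3'-end cleavage. 2 readings of each gene were taken here by 3'-end sequencing: reads at the intronic site and reads at the last exon. Usage is the percentage of site reads among site and last-exon reads of a library. Where a gene has another listed site, the reads of that site do not enter. Usage can move because the site changed, because the last exon changed, or both, and these are separated below.

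The peak lists of the 4 libraries held between 1427728 and 3347776 reads, and the lowest is the list of 67NR replicate 2, which covers 10 chromosomes only. On those 10 chromosomes the 4 libraries held 1144065 to 1556328 reads. The tables themselves give all 4 libraries at every site. Reads given per library below are whole reads before scaling for depth. After the authors' scaling, 1 read counted as 1.21 and 1.02 in the 4T1 libraries and 0.90 and 0.86 in those of 67NR. The sites were 58 to 2290 bp wide, with a median of 296 bp, lay on 18 chromosomes, and fell on the plus strand in 60 cases and on the minus strand in 62. The authors' tables place them in introns, and no annotation of mm9, the build of the coordinates, was used here to check that. Of the epithelial and mesenchymal markers examined, only Spint2 and Cblc (epithelial) and Twist2 (mesenchymal) are among the 117 genes, and no immune or endothelial marker is. Other markers were not analysed here.

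Usage was lower in 4T1 at 93 sites and higher at 29. At the 93 sites the median usage was 1.32% in 4T1 and 14.0% in 67NR. In such bulk cultures, fewer cells with a transcript and fewer transcripts per cell cannot be told apart. At the 29 sites it was 21.2% in 4T1 and 2.66% in 67NR. Of the 93 sites, 42 had a mean usage under 1% in 4T1 and 20 a mean usage above 50% in 67NR, and 3 met both conditions (Spint2, Ldhb and the downstream site of Nsd1). Of the 29 sites, 13 had a mean usage above 50% in 4T1 and 12 were under 1% in 67NR, and 1 met both (Mgll). The 4 libraries separated the lines without overlap at 121 sites, and the exception was the site of Cadm1. As the tables hold only sites that the authors called, these values are a description. The adjusted p in the authors' deposited table reached 0.096 at As3mt and 0.095 at Dhx15, among the members nearest to the edge of the list. Sites outside the list were not analysed here.

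Mean usage differed by at least 10 percentage points at 70 sites, 51 lower and 19 higher in 4T1, and by at least 50 at 24 sites, 18 lower and 6 higher. Nsd1, which encodes a histone methyltransferase, had the widest difference. Its downstream site (chromosome 13, 55362015 to 55362341, plus strand) had 0 and 0 reads in 4T1 against 9 and 10 in 67NR, while its last exon had 11 and 25 reads in 4T1 against 0 and 0 in 67NR. Every read of this site and the last exon thus lay at the last exon in 4T1 and at the site in 67NR. Still, 0 of 36 reads leaves room for a usage as high as 8.33% in 4T1. The other listed site of Nsd1 does not enter this usage. It had 2 and 4 reads in 4T1 against 13 and 12 in 67NR. Ldhb, the B subunit of lactate dehydrogenase, had 0 and 0 site reads in 4T1 against 6 and 13 in 67NR, with 23 and 31 last-exon reads against 2 and 1. Mgll, the lipase that breaks down monoacylglycerols, showed the reverse, with usage of 0.309% ± 0.00608 in 67NR but 85.2% ± 20.9 in 4T1 (SD, n = 2). Several of these sites rest on few reads, and intervals and limits from reads cover counting error only.

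**Figure D1:**
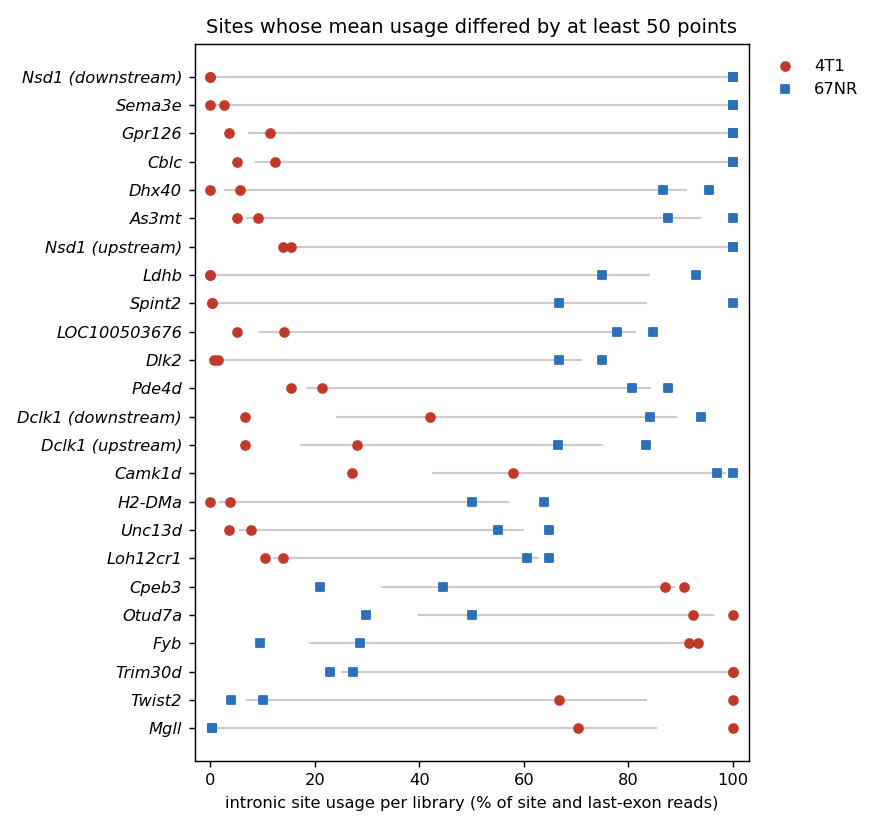
Usage of the intronic site in each library (x axis, percent of site and last-exon reads) at the 24 sites whose mean usage differed by at least 50 percentage points, with 4T1 as red circles, 67NR as blue squares and a grey line between the 2 means; 18 sites are lower and 6 higher in 4T1, and at none of them do the libraries of the 2 lines overlap.

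Reads at the site and at the last exon were then tested separately with edgeR's quasi-likelihood test. Site reads were lower in 4T1 at 81 of the 122 sites (66.4%) and higher at 21 (17.2%) at a Benjamini-Hochberg adjusted p under 0.05. Last-exon reads were higher in 4T1 in 44 of the 117 genes (37.6%) and lower in 30 (25.6%). Over all listed sites the median log2 change was -2.22 for site reads, and over the genes it was 0.17 for last-exon reads. Because the sites were listed for their usage, these counts describe how the listed changes are made up and are not independent evidence of a change. With DESeq2, site reads were lower at 61 sites and higher at 11, and without 67NR replicate 2 they were higher at 13.

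Among the 93 sites of lower usage in 4T1, the site itself fell at 80. It fell with no called change of the last exon at 39 sites, fell while the last exon rose at 30, and fell together with a smaller fall of the last exon at 11. At the other 13 sites the last exon rose and the site reads did not pass the test. Below, a site or last exon that changed alone is one whose partner did not pass the test, which does not show that the partner stayed the same. Among the 29 sites of higher usage, the site rose at 21. It rose with no called last-exon change at 5 sites, rose while the last exon fell at 13, and rose together with the last exon at 3. Last-exon reads fell without a called change of the site at 7 sites, and at the remaining 1, Mctp1, both fell. Its site call was lost without 67NR replicate 1 (edgeR adjusted p = 0.0737), 67NR replicate 2 (-1.01, edgeR adjusted p = 0.0669) or 4T1 replicate 2 (-0.52, edgeR adjusted p = 0.197). The division moved with single libraries: the group in which the site fell and the last exon rose held 14 sites without 67NR replicate 1, 14 without 67NR replicate 2 and 19 without 4T1 replicate 1, and the group in which the site rose and the last exon fell held 6, 4 and 7. With DESeq2 the first group held 15 and the second 3, and sites of lower usage through the last exon alone numbered 27. A call of the site was kept under every removal of 1 library at 69 of 102 sites, and a call of the last exon in 55 of 74 genes.

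**Figure D2:**
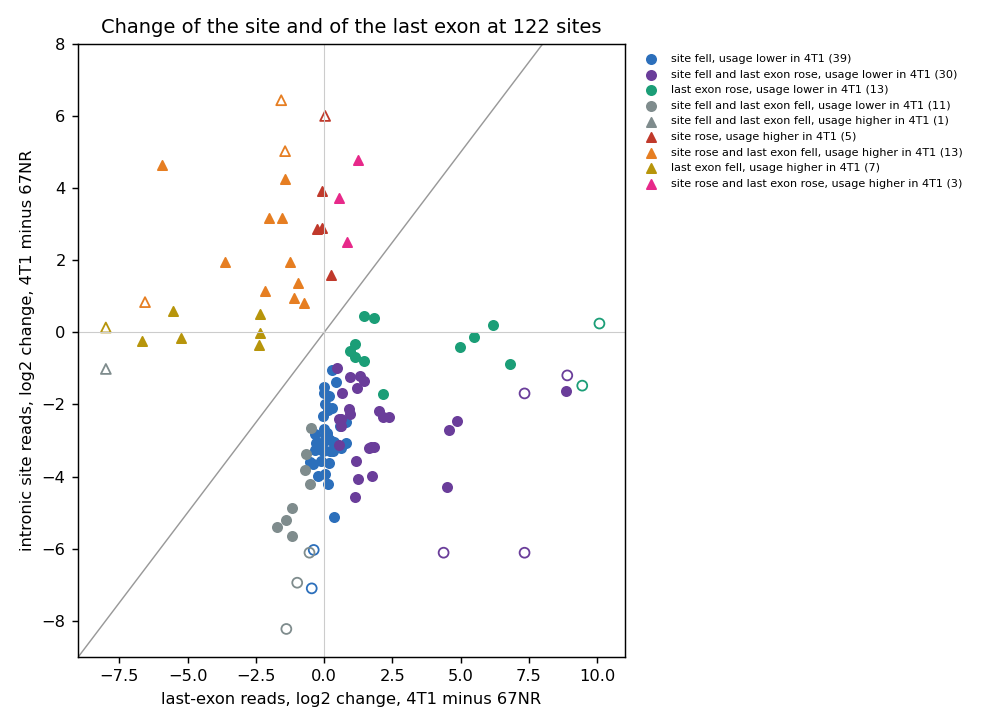
Log2 change from 67NR to 4T1 of last-exon reads (x axis) and of intronic site reads (y axis) at the 122 sites, with colours for which of the 2 changed, circles for usage lower and triangles for usage higher in 4T1, open symbols where a line had no read at the site or the last exon, and a grey line where both change equally. The 39 sites whose reads fell alone form a column near 0 on the x axis, and the sites of lower usage lie below the line.

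At the 39 sites that fell alone, the median log2 change was -3.06 at the site and 0.04 at the last exon. Sec23b, a subunit of the COPII vesicle coat, had 167 and 144 site reads in 67NR but 12 and 18 in 4T1 (chromosome 2, 144386551 to 144386837, plus strand). Its last exon had 258 and 248 reads against 261 and 244. The site change was -3.04 log2 units ± 0.29 (SE, edgeR adjusted p = 6.01e-05), and usage was 38.1% ± 1.35 in 67NR but 5.61% ± 1.64 in 4T1 (SD, n = 2). The 2 lines did not overlap at the site. Their last-exon counts were nearly equal before scaling, and the normalized means were 283 in 4T1 and 223 in 67NR. That last-exon change did not pass (0.34 ± 0.21 log2 units, SE, edgeR adjusted p = 0.161). Dip2b, a member of the disco-interacting protein family, had 6 and 1 site reads against 70 and 69, with 54 and 110 last-exon reads against 107 and 92. At Parn, a nuclease that removes poly(A) tails, the site had 1 and 2 reads against 22 and 28. Nup98, a nuclear pore protein, had 4 and 5 site reads against 44 and 54, and usage fell from 15.5% ± 1.37 to 2.40% ± 0.426 (SD, n = 2). Cul1, the scaffold of a ubiquitin ligase, had 5 and 6 site reads against 47 and 51. H2-DMa, a chaperone of antigen loading, had 1 and 0 against 30 and 23.

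Other sites that fell alone were minor ends of abundant transcripts. Tm4sf1, a tetraspan membrane protein, had only 3 and 2 site reads in 4T1 against 45 and 34 in 67NR beside 6550 and 6387 last-exon reads against 12926 and 10240. Its usage was 0.0385% ± 0.0102 and 0.339% ± 0.0113 (SD, n = 2). The site change was -3.59 ± 0.46 log2 units (SE, edgeR adjusted p = 0.000172), and that of the last exon was -0.50 ± 0.45 (SE, edgeR adjusted p = 0.343). Ankrd33b was unlike the rest, because its intronic site was the main end in both lines. It had 30 and 42 site reads in 4T1 against 279 and 224 in 67NR beside 5 to 9 last-exon reads in every library, so that usage went only from 98.0% to 83.1% while the site fell by 2.48 log2 units (SE 0.27). At Rilpl2, no site read was found among 67 reads in 4T1, so that usage there could be at most 4.48%, while it was 24.5% ± 3.87 in 67NR (SD, n = 2). The site of Rilpl2 was at least 9.98-fold lower in 4T1, taking 3 reads over the 2 libraries as the limit of a count of 0.

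At 30 sites both readings moved, with fewer site reads and more last-exon reads in 4T1. Hip1, which acts in clathrin-mediated uptake, had 222 and 239 last-exon reads against 70 and 75, and 1 and 3 site reads against 12 and 12. Abcb10, a mitochondrial transporter, had 1 and 0 site reads against 16 and 20, and 201 and 181 last-exon reads against 109 and 111. Oxnad1 had 0 and 1 site reads against 12 and 12, with 111 and 115 last-exon reads against 44 and 40. At Mapk14, a stress-activated kinase, the site had 8 and 13 reads against 30 and 32, with a site change of -1.23 ± 0.34 and a last-exon change of 0.95 ± 0.20 log2 units (SE).

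At 13 sites of lower usage the last exon rose and the site reads did not pass the test. Dlk2, a Delta-like protein related to Notch ligands, had 296 and 258 reads at its last exon in 4T1 against 4 and 2 in 67NR, a rise of 6.81 ± 0.42 log2 units (SE, edgeR adjusted p = 7.32e-39). Its site had 2 and 4 reads against 8 and 6, a change of -0.87 ± 0.57 (SE, edgeR adjusted p = 0.207). Usage nevertheless was 70.8% ± 5.89 in 67NR (SD, n = 2) and under 2% in both 4T1 libraries. Sema3e, a secreted semaphorin, had no last-exon read in 67NR and 47 and 111 in 4T1, at least 64.4-fold more. Its site had 0 and 3 reads in 4T1 against 6 and 5 in 67NR. Gpr126, an adhesion receptor, had a last exon at least 99.8-fold higher in 4T1 and a site with 10 and 6 reads against 9 and 8. Tmem79 had 275 and 225 last-exon reads against 13 and 7 and site reads of 2 and 7 against 10 and 5. The smaller changes of this kind were at abundant genes, such as Med24, a Mediator subunit, with 59 and 89 site reads against 65 and 74 and a last-exon change of 1.81 ± 0.20 log2 units (SE).

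**Figure D3:**
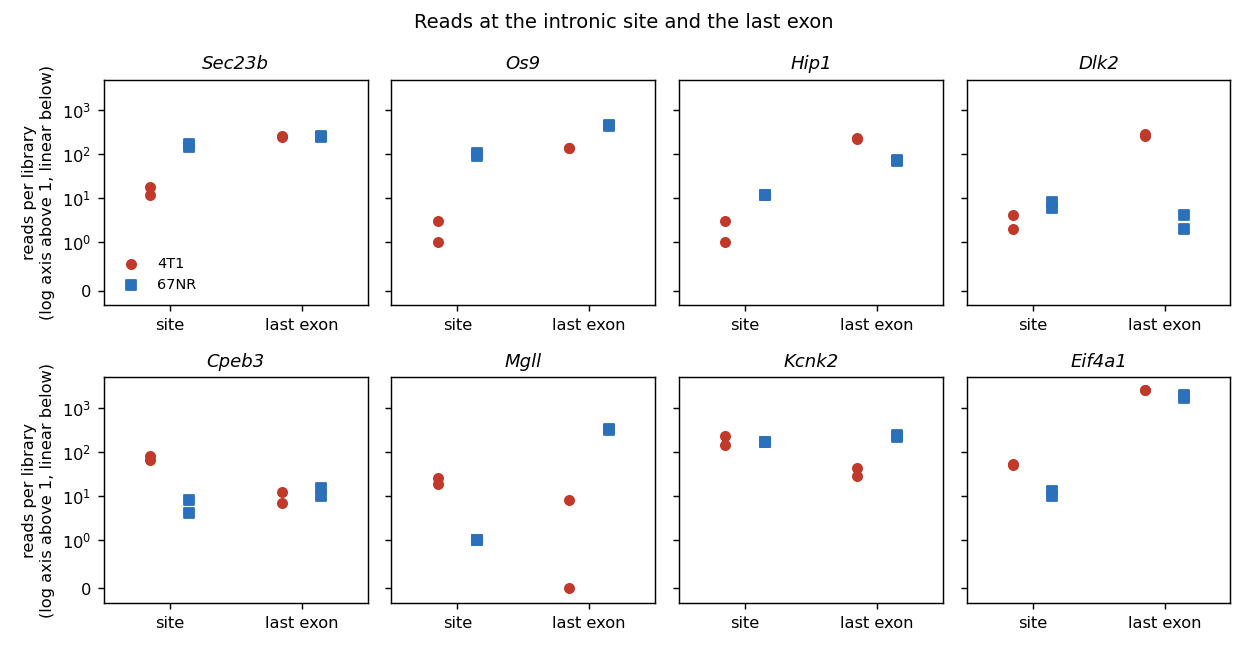
Reads in each library (y axis, logarithmic above 1 and linear below) at the intronic site and at the last exon of 8 genes, with 4T1 as red circles and 67NR as blue squares. At Sec23b and Cpeb3 the lines part at the site, at Dlk2 and Kcnk2 they part at the last exon, at Hip1 and Mgll they part in opposite directions at the 2 places, and at Os9 and Eif4a1 both places move the same way.

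At 11 sites in 10 genes both ends gave fewer reads in 4T1 and the site lost more than the last exon. This group held 5 sites with TMM scaling, 5 without 67NR replicate 1 and 7 without 4T1 replicate 1. Os9, a lectin of protein quality control in the endoplasmic reticulum, had 3 and 1 site reads in 4T1 against 105 and 90 in 67NR, with 137 and 137 last-exon reads against 474 and 433. The site changed by -5.20 ± 0.44 and the last exon by -1.39 ± 0.21 log2 units (SE; edgeR adjusted p = 5.77e-05 and 3.19e-09). Lrrc20 had no site read in 4T1 against 51 and 32 in 67NR and 27 and 21 last-exon reads against 88 and 71. Fbxl17, an F-box protein, had no site read in 4T1 against 20 and 14. Dclk1, a doublecortin-like kinase that binds microtubules, has 2 listed sites 378 bp apart on chromosome 3. Its downstream site had 1 and 13 reads in 4T1 against 281 and 608 in 67NR, and its upstream site 1 and 7 against 105 and 195. The last exon of Dclk1 had 14 and 18 reads against 53 and 39, and that change did not pass without 67NR replicate 1 (-0.92, edgeR adjusted p = 0.188) or without 4T1 replicate 1 (-1.14, edgeR adjusted p = 0.056). Most transcripts of Dclk1 in 67NR ended at the intronic sites.

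Among the 29 sites of higher usage in 4T1, those that rose alone include Cpeb3, which binds cytoplasmic polyadenylation elements, with 67 and 80 site reads in 4T1 against 8 and 4 in 67NR beside 7 and 12 last-exon reads against 10 and 15. Its site rose by 3.91 ± 0.34 log2 units (SE, edgeR adjusted p = 5.77e-05). Ube4b, a ubiquitin ligase, had 32 and 22 site reads against 5 and 4 with last-exon reads of 260 and 321 against 382 and 382, and its site rose by 2.89 ± 0.46 (SE, edgeR adjusted p = 0.00054). Tmem167 rose by 2.86 ± 0.27 log2 units at the site (SE). Eif4e2, a cap-binding protein, used its intronic site in most transcripts of both lines, with 882 and 909 site reads against 415 and 329. The site call of Eif4e2 was lost without 4T1 replicate 1 (edgeR adjusted p = 0.0518). Rin2, a Rab guanine nucleotide exchange factor, had 6 and 8 site reads in 4T1 and none in 67NR, at least 5.84-fold more. The site call of Rin2 was lost without 4T1 replicate 2 (edgeR adjusted p = 0.0606).

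Where the site rose and the last exon fell, Mgll had 19 and 26 site reads in 4T1 against 1 and 1 in 67NR, and 8 and 0 last-exon reads against 327 and 318. The site of Mgll changed by 4.64 ± 0.52 and its last exon by -5.95 ± 0.41 log2 units (SE; edgeR adjusted p = 0.000102 and 2.39e-33). The sum of both ends of Mgll was far smaller in 4T1, and most of the reads left there lay at the site. Trps1, a GATA-type repressor, has 2 sites 304 bp apart that were both higher in 4T1. The upstream, wider one had 8 and 43 reads against 0 and 3, and the other 1 and 6 against 0 and 0. The replicates of 4T1 differed at both sites of Trps1, and without 4T1 replicate 2 neither passed (edgeR adjusted p = 0.0684 and 0.582). Prickle2, a planar polarity protein, had no last-exon read in 4T1 against 12 and 14 in 67NR, with 27 and 33 site reads against 22 and 20. Its site call was lost without either 67NR replicate (0.94 and 0.74, edgeR adjusted p = 0.0818 and 0.143).

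At the 7 sites of higher usage whose last exon alone fell, the pattern was the mirror image of Dlk2. Cadm1, a cell adhesion molecule of the immunoglobulin family, had 22 and 6 reads at its last exon in 4T1 against 1438 and 2257 in 67NR, a change of -6.68 ± 0.29 log2 units (SE, edgeR adjusted p = 7.07e-61). The site of Cadm1 had 2 and 0 reads against 2 and 1, so its usage of 4.17% ± 5.89 in 4T1 (SD, n = 2) rests on 2 reads. Kcnk2, a background potassium channel, is better covered, with 146 and 228 site reads against 166 and 164 and 28 and 43 last-exon reads against 216 and 239. Its last exon changed by -2.35 ± 0.31 and its site by 0.50 ± 0.24 log2 units (SE; edgeR adjusted p = 9.27e-12 and 0.083). Gas2l1, which links actin and microtubules, ended mainly in the intron in both lines, with usage of 96.6% ± 0.417 and 87.5% ± 1.92 (SD, n = 2). Trim30d had no last-exon read in 4T1 against 24 and 47 in 67NR, at least 18.6-fold fewer, and site reads of 11 and 9 against 9 and 14. Otud7a, a deubiquitinase, had 1 and 0 last-exon reads against 33 and 25.

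At 3 genes both ends gave more reads in 4T1 and the site gained more. Eif4a1, a helicase of translation initiation, had 50 and 54 site reads against 13 and 10, a rise of 2.50 ± 0.30 log2 units (SE, edgeR adjusted p = 0.000133), beside 2631 and 2560 last-exon reads against 1986 and 1680. The last-exon call of Eif4a1 was lost without 67NR replicate 2 (0.70, edgeR adjusted p = 0.135) or 4T1 replicate 1 (0.69, edgeR adjusted p = 0.0633). Wbscr22, now named Bud23 and a methyltransferase of ribosomal RNA, had 12 and 16 site reads against 1 and 0. The third gene, Ppp1r8, had 10 and 14 site reads against 2 and 0. Its last-exon call was lost without 67NR replicate 1, 67NR replicate 2 or 4T1 replicate 1 (0.68, 0.42 and 0.32 log2 units). Mean usage stayed under 5% in both lines at all 3 genes.

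3 further genes have 2 listed sites. Tpm1, a tropomyosin of actin filaments, had 17 and 16 reads at its upstream site in 4T1 and 64 and 70 in 67NR, and 16 and 12 against 55 and 47 at the site 237 bp away, with no called change of its last exon. At Usp10, a deubiquitinase, the sites lie 8935 bp apart and the last exon rose by 1.44 ± 0.22 log2 units (SE, edgeR adjusted p = 1.86e-09). The site reads of Usp10 were 3 and 8 against 14 and 10 upstream, which did not pass, and 3 and 4 against 7 and 16 downstream, which did not pass without 67NR replicate 2 (-0.68, edgeR adjusted p = 0.489), 4T1 replicate 1 (-1.29, edgeR adjusted p = 0.159) or 4T1 replicate 2 (-1.45, edgeR adjusted p = 0.14). At Nsd1 the sites are 38540 bp apart, and the upstream one still had 2 and 4 reads in 4T1 against 13 and 12. That call was lost without 67NR replicate 1 (-1.60, edgeR adjusted p = 0.055) or 4T1 replicate 1 (-1.41, edgeR adjusted p = 0.0539). Sites of the same gene share a last exon and are not independent.

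The genes were also read by role, with lists matched by gene symbol or symbol pattern. The lists do not hold every gene of a role, and a match, such as that of Ankrd33b below, does not show that the gene has it. Over all listed sites usage was lower in 4T1 at 93 of 122 and site reads were lower at 66.4%, and each list is read against these shares. On the list of adhesion, matrix and cytoskeleton genes (among them Add1, Ankrd33b, Ctnnb1 and the pair in Tpm1) usage was lower in 4T1 at 6 of 6 sites, and site reads fell at 6. The list does not hold Cadm1 and Gas2l1, whose usage was higher in 4T1. On the cell cycle list (Ccnb1, Cdk5rap3, Kif2a and Tpx2) usage was lower at 4 of 4 sites and site reads fell at 4. On the metabolic and mitochondrial list (Aldh16a1, As3mt, Cox5a, Ldhb and Ndufa7) usage was lower at 5 of 5 sites and site reads fell at 5, and the list does not hold Mgll, whose usage was higher. Some of these site calls were lost without single libraries: Ctnnb1 without 67NR replicate 1, 67NR replicate 2 or 4T1 replicate 2 (-2.96, -3.23 and -2.13, edgeR adjusted p = 0.11, 0.0619 and 0.078), As3mt without either 67NR replicate (-2.51 and -2.38, edgeR adjusted p = 0.0696 and 0.102), and Ndufa7 without 4T1 replicate 2 (-0.87, edgeR adjusted p = 0.0665). Both epithelial marker genes had higher last exons in 4T1, and the mesenchymal marker Twist2 had a lower one. Whether epithelial and mesenchymal state plays a part in the usage changes was not tested.

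Other groups were mixed. Kinases, phosphatases and receptors had 5 of 6 sites lower and 5 of 6 last exons risen, where 37.6% rose over all genes. That list does not hold the kinases Dclk1 and Sbk1. Usage was lower in 4T1 at both, but the last exon fell at Dclk1 and had no called change at Sbk1. Transport between the endoplasmic reticulum, the Golgi and vesicles had 5 of 6 lower, ubiquitin enzymes 6 of 9, solute carriers and ABC transporters 3 of 4, RNA processing 4 of 6, and chromatin and transcription 3 of 4. Translation factors had 1 of 3 lower, and zinc finger regulators 1 of 3. DNA repair had 2 of 2 lower, the small GTPase group 1 of 1, and Wnt, Hippo, Notch and polarity 1 of 2. Against a share of 76.2% over all listed sites, groups of this size show no more than their counts.

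The same sites were then read in libraries that played no part in listing them for 4T1 and 67NR, those of 4T07 and 168FARN. In the deposited peak lists, 71 of the 122 sites had enough reads for a test among 27145 merged peaks. Of these 71, 4 were lower in 4T07 than in 168FARN and 3 higher, where 4.97% and 5.74% of all peaks were (edgeR, adjusted p under 0.05). The share of members called is therefore close to the background. Called lower were the sites of Loh12cr1, Tpm1, Eif4e2 and Cadm1, and called higher were those of Dclk1, Tcf25 and AI506816. Usage was lower in 4T1 than in 67NR at Dclk1 and Tcf25 and higher at Eif4e2 and Cadm1. Their peak reads thus differed in the opposite direction to that usage. Between 4T1 and 67NR, however, site reads had no called change at Tcf25 and Cadm1, where the last exon alone was called. At Loh12cr1, Tpm1 and AI506816 peak reads and usage differed in the same direction. None of the 27145 peaks passed with the replicate number as a block, without 4T07 replicate 1 or without 4T07 replicate 2, although 7605, 6132 and 6042 had an unadjusted p under 0.05. A peak missing from a list does not mean that no read was there: of 37 sites that the tables also give for 4T07 and 168FARN, 8 to 13 per library had reads there but no peak in the list of the same library. Restricted to sites with a peak in all 4 libraries, a choice made after seeing the data, 13 of 47 members were lower and 4 higher, beside 15.9% and 17.1% of 18105 peaks.

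The authors' tables for 4T07 and 168FARN list 37 of the 122 sites, and reads recovered from those tables allow the site and the last exon to be separated there too. These 37 were called by the authors in these same libraries, so their values there are a description and are not independent of the listing. Usage differed in the same direction at 30 of the 37 and in the opposite direction at 7. Of the sites lower in 4T1, 24 of 26 were lower in 4T07, and of those higher in 4T1, 6 of 11 were higher. Over all 329 sites of those tables usage was lower in 4T07 at 79.6% and higher at 20.4%. Over the same 329 sites, site reads were lower in 4T07 at 58.4% and higher at 19.8%, and last-exon reads were higher in 52.8% of the genes and lower in 24.3% (edgeR, adjusted p under 0.05). Of the 26 shared sites that were lower in 4T1, site reads were lower in 4T07 at 19, higher at 1 and not called at 6. Their last exon was higher in 4T07 at 17, lower at 2 and not called at 7. Of the 11 that were higher in 4T1, site reads were higher in 4T07 at 6, lower at 4 and not called at 1. Without 168FARN replicate 1, site reads were lower at 13 of the 37 sites instead of 23.

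Usage of several sites moved in the same direction in both pairs, though the last exon did not always do so. Sec23b fell at the site by 2.84 log2 units from 168FARN to 4T07 (SE 0.41, edgeR adjusted p = 1.54e-10) and its usage from 14.0% ± 0.226 to 1.72% ± 0.275 (SD, n = 2). Its last exon changed by 0.34 ± 0.21 log2 units from 67NR to 4T1 and by 0.34 ± 0.12 from 168FARN to 4T07 (SE). Only the second passed (edgeR adjusted p = 0.161 and 0.0237). Tpx2, a spindle assembly factor, had 2 and 0 site reads in 4T07 against 32 and 33 in 168FARN (edgeR adjusted p = 2.05e-13). The last exon of Tpx2 had 255 and 340 reads in 4T1 against 496 and 546 in 67NR. In the other pair it had 421 and 484 in 4T07 against 287 and 410 in 168FARN. Camk1d, a calcium-dependent kinase, again passed at the last exon and not at the site. Its last exon had 135 and 132 reads in 4T07 and none in 168FARN, at least 93.5-fold more (edgeR adjusted p = 3.58e-06), and its site changed by 0.16 ± 0.30 log2 units (SE, edgeR adjusted p = 0.63). Padi2 moved in the same direction in usage in both pairs but also differed at the last exon. The last exon of Padi2, a peptidylarginine deiminase, was lower in 4T1 than in 67NR (-1.26 ± 0.26 log2 units, SE) but higher in 4T07 than in 168FARN (0.52 ± 0.13, SE, edgeR adjusted p = 0.00512), while its site was higher in both. The site of Padi2 changed by 1.95 ± 0.56 log2 units in the first pair (SE), and in the second it had 7 and 11 reads in 4T07 and none in 168FARN, at least 6.17-fold more. Its usage was 10.5% ± 4.60 in 4T1 and 4.59% ± 0.673 in 4T07 (SD, n = 2). The first of these site calls was lost without 67NR replicate 2 (1.93, edgeR adjusted p = 0.0501) or 4T1 replicate 1 (edgeR adjusted p = 0.094).

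**Figure D4:**
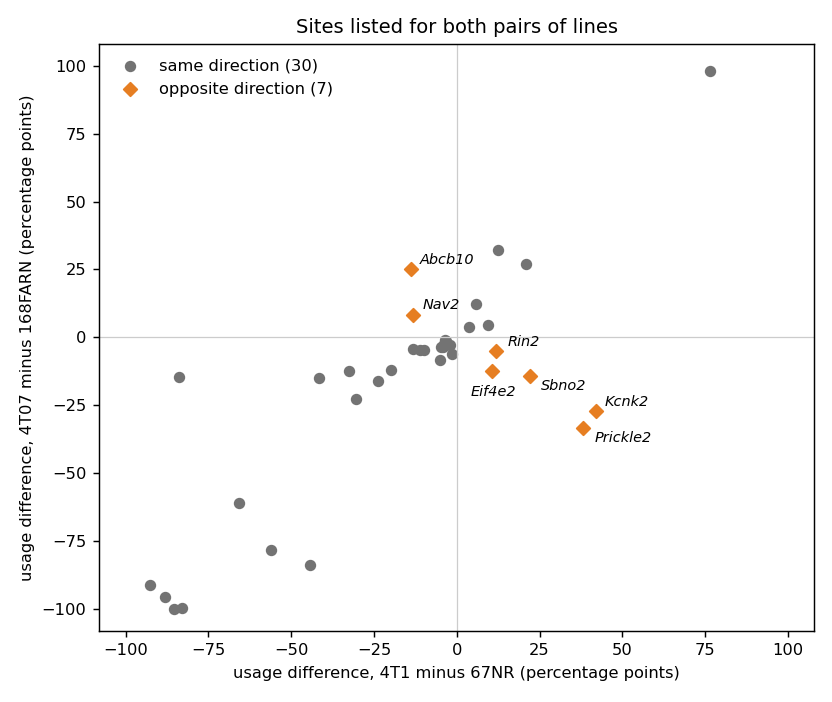
Difference in mean usage between 4T1 and 67NR (x axis, percentage points) and between 4T07 and 168FARN (y axis, percentage points) at the 37 sites listed for both pairs, which share no library. Grey circles are the 30 sites of the same direction and orange diamonds, labelled by gene, the 7 of opposite direction.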

How the data were processed

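Poly(A)+ RNA was sequenced at its 3' ends in 2 libraries per line. Per the submitters' processing notes, the tools were Bowtie2 2.2.5, SAMtools 1.1, bedtools 2.17.0 and DESeq2 1.4.5 with build mm9. Per the file headers, the deposited tables give the signal of each site and each last exon as normalized reads, with the authors' log2 fold change, its standard error and an adjusted p-value. The authors deposited peak lists per library in which each peak has a read count in whole numbers. No source used here defines the last exons.

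Dividing each signal column by its value of 1 read gave whole reads for 100% of values (tolerance 0.1 read). Their tests ran in edgeR 4.0.16 under R 4.3.3, using the authors' scaling, over all rows of the tables (adjusted p under 0.05). Each last exon entered once. On data simulated at a dispersion of 0.05, with changes of 2 log2 units, the test recovered 72.5% of changed sites and 95% of changed last exons. Among the simulated unchanged features, 1 of 82 sites and 0 of 77 last exons were called. Peaks of 4T07 and 168FARN were tested with TMM scaling and at least 10 reads. DESeq2 1.42.0, limma 3.58.1 with a pseudocount of 1 or 0.5, TMM, peak-list totals, a read minimum of 10, the replicate block and removal of each library were the alternatives. The tests of the 4T07 and 168FARN tables, the requirement of a peak in every library and totals over shared chromosomes were added after seeing the data.

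The members and gene lists were chosen with earlier results of these data known. Named sites are those with a usage difference of at least 10 percentage points, the largest changes of each class, gene-list members, genes with 2 sites and sites called in the 4T07 and 168FARN peaks; sites alike are given by range, and some sites are not reported here. Of 117 symbols, 116 matched a current symbol in the RefSeq table of GRCm38.p6, and 4 have since changed.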

Additional observations from a re-analysis of the deposited data

Results flagged for a closer look

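At 7 of the 37 sites listed for both pairs of lines, usage moved in opposite directions in the 2 pairs, with no overlap between the libraries of a pair; the difference between the pairs was not tested. Usage was lower in 4T1 than in 67NR but higher in 4T07 than in 168FARN at 2 sites. Abcb10 differed by -13.8 percentage points in the first pair and by 25.0 in the second, and Nav2 by -13.1 and 8.29. At Abcb10 the site fell in the first pair (-4.56 ± 0.72 log2 units, SE) and was higher in 4T07 (3.81 ± 0.54, SE). The last exon of Abcb10 was higher in 4T1 (1.14 ± 0.26, SE) and lower in 4T07 (-0.53 ± 0.17, SE, edgeR adjusted p = 0.0203).

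The other 5 sites were higher in 4T1 and lower in 4T07. The differences were 10.7 and -12.2 points at Eif4e2, 22.2 and -14.2 at Sbno2, 11.9 and -5.11 at Rin2, 38.2 and -33.2 at Prickle2, and 41.9 and -27.2 at Kcnk2. At Kcnk2 the last exon was lower in 4T1 than in 67NR (-2.35 ± 0.31 log2 units, SE) and higher in 4T07 than in 168FARN (2.19 ± 0.21, SE). The site of Kcnk2 was also called lower in 4T07, with 185 and 255 reads against 315 and 454 in 168FARN. At Rin2 the last exon was higher in 4T07 by 3.36 ± 0.15 log2 units (SE), with its site also higher (1.17 ± 0.50, SE).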

How the results depend on the processing

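No named call of a site or last exon changed direction under any alternative run. Of 102 site calls 64 passed under every alternative that gave a value, and of 74 last-exon calls 55. The authors' adjusted p at most 0.01 left 30 lower and 6 higher sites. Site reads higher in 4T1 numbered 21, with DESeq2 11, and 13 to 16 with a library left out. TMM shifted the median log2 change by 0.20 for sites and 0.21 for last exons. For the members' peaks in 4T07 against 168FARN, the counts lower and higher were 12 and 9 with no filter beyond 1 read, 10 and 8 with DESeq2, and 13 lower with a peak in all 4 libraries. They were 0 to 2 lower and 0 to 2 higher with a library left out. All peaks called numbered 2907, against 6733 with no such filter, 5704 with DESeq2, 5982 with a peak in all 4 libraries and 0 to 2160 with a library left out. In the tables of that pair, members with lower site reads numbered 13 to 19 and with lower last-exon reads 3 to 5 with a library left out. The cause of these shifts was not tested. Same-numbered libraries of 4T1 and 67NR share only a number; their deviations from the line means correlated at 0.205 over 239 features. With the replicate number as a block, site reads were lower at 73 and higher at 22 sites, last-exon reads higher in 48 and lower in 30 genes, and 0 peaks were called, so 0 members' peaks were lower and 0 higher. Few reads limit many sites: 37 had at most 3 site reads over both 4T1 libraries and 10 over both 67NR libraries.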

Other observations

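3 of the 122 sites are also listed for 4T1 cells given the antisense morpholino against U1. Among them, site usage in those treated cells was 91.9% ± 0.792 at Ankrd33b and 55.7% ± 19.8 at Cpeb3 (SD, n = 2). In 4T1 it was 83.1% ± 8.80 and 88.7% ± 2.53, and in 67NR 98.0% ± 0.299 and 32.7% ± 16.5 (SD, n = 2). Those comparisons share the 4T1 libraries, and the values stand side by side without a test.

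Other lines gave further values at members described above. At Mgll, usage in 4T07 was 80.0% ± 28.3, from 9 and 8 site reads and 6 and 0 last-exon reads (SD, n = 2). At Dlk2, usage in 4T07 was 1.87% ± 0.0742, while in 168FARN it was 10.8% ± 0.729 (SD, n = 2) and the last exon had 148 and 133 reads. Gas2l1 kept its intronic end in 4T07 as well, at 97.6% ± 0.431 (SD, n = 2).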
